A study of Homo sapiens with 6 samples.

Results

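The transcripts examined here were 33 named noncoding RNAs, namely 14 small nucleolar RNA (snoRNA) host genes and 19 other long noncoding RNAs (lncRNAs) that are well studied in general or in prostate cancer. They were chosen by name, and their rows were found by NCBI Gene number among the 29806 gene numbers of the count table. A row was found for 32 of them. *SNHG14* had no row in the table analysed. Of the 32, 28 had enough reads to be compared between the groups.

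The study compared LNCaP parental cells with PACT KO cells, in which CRISPR-Cas9 was aimed at *PRKRA*, the gene that encodes the double-stranded RNA binding protein PACT. LNCaP is an androgen-responsive human prostate cancer cell line, of wild type genotype at this gene in the parental group. Both groups were grown without a drug in RPMI-1640 with serum, and polyA RNA was taken from 3 dishes of each, 48 h after plating. PACT KO cells were grown from single colonies of transfected, sorted cells, and the study's supplement names 1 clone as the source of its later experiments, so the spread given here is between dishes and a difference between groups cannot be told apart from a difference between a clone and its parental population.

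Host genes of snoRNAs are spliced like other genes, but the introns are the part that is kept: each snoRNA is trimmed from an intron and guides the chemical modification of ribosomal or spliceosomal RNA. The spliced exons of many lncRNA hosts are short, are translated poorly and are removed by nonsense-mediated decay, and several of these genes start transcription at a run of pyrimidines as ribosomal protein genes do. Other lncRNAs act as scaffolds in the nucleus, carry microRNAs, silence imprinted genes or bind proteins in the cytoplasm. Several are used as markers of prostate cells or prostate tumours.

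The reads counted on genes were between 19930060 and 24940838 per library. At these depths, 3 counts correspond to 0.12 to 0.151 CPM, that is counts scaled to a common library total, which is also the upper limit that a count of 0 allows, for counting error only. *PRKRA* had 882, 809 and 866 reads in LNCaP parental replicates 1, 2 and 3 and 291, 331 and 243 in the PACT KO replicates, a log2 fold change of -1.57 (SE 0.07). All 10 luminal prostate markers were over the floor in every library, with a summed level of 3770 to 3809 CPM in LNCaP parental and 3859 to 3894 CPM in PACT KO, while within this list *KLK3* and *KLK2*, the androgen-regulated kallikreins, fell by 2.50 and 0.84 on the log2 scale. Of 15 markers of basal, stromal, endothelial and immune cells, 4 were over the floor in every library, and *KRT5*, *PECAM1*, *CDH5*, *CD3E* and *COL1A2* were at 0 in all 6. The summed level of these 15 was 62.4 to 64.7 CPM in LNCaP parental and 62.0 to 68.5 CPM in PACT KO, and in it *VWF*, an endothelial glycoprotein, fell by 0.61 and *COL1A1*, a collagen of stroma, rose by 0.52 on the log2 scale.

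PACT KO replicate 1 stood apart in noncoding RNA. Abundant RNAs that lack a poly(A) tail, *RN7SK*, *RN7SL1*, *RN7SL2*, *RMRP* and *RPPH1*, were summed after this had been noticed. The sum of these 5 was 2.82, 2.17 and 14.3 CPM in LNCaP parental replicates 1 to 3 and 399, 3.17 and 2.32 CPM in PACT KO replicates 1 to 3. The share of reads on mitochondrial genes was also highest in this library, at 2.84%, against 2.47% and 2.48% in the other PACT KO libraries and 1.94% to 1.98% in LNCaP parental. The part of these differences in the results was not tested, and values without PACT KO replicate 1 are given where they bear on a call.

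Of the 28 RNAs compared, 7 were lower and 4 were higher in PACT KO, and 17 were not called. A gene was called at a false discovery rate (FDR) under 0.01, where FDR is the Benjamini-Hochberg adjusted p of edgeR's quasi-likelihood test over all 14462 genes tested. The 11 called make 39.3%, and 34.2% of all genes tested were called, with 18.8% lower and 15.3% higher. The share among the listed RNAs was therefore near that of all genes. Without LNCaP parental replicate 2, 4 were lower and 4 higher, and *SNHG12*, *PCAT1* and *OIP5-AS1* were no longer called. In bulk RNA a lower level can come from less RNA per cell or from fewer cells that hold it, which cannot be told apart. Among all 1073 tested genes of the RefSeq class lncRNA, 13.1% were called, 34 lower (3.17%) and 107 higher (9.97%), with a median log2 fold change of 0.12. The listed RNAs had a median of -0.02, and all genes tested of 0.00.

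A change of at least 1.5-fold together with the FDR threshold, the study's definition of a differentially expressed gene (DEG), was met by *DLEU2* among the lower RNAs and by *HOTAIRM1* among the higher. Of all genes tested, 2.65% met it downwards and 3.07% upwards (5.72% in all), and of the lncRNA class 1.68% and 3.91% (5.59% in all). The 3 PACT KO libraries lay all above or all below the 3 LNCaP parental libraries for 17 of the 28 RNAs (60.7%), as they did for 52.2% of all genes tested and 34.4% of the lncRNA class. With 3 dishes against 3, an exact permutation test of a single gene cannot give a p under 0.10, so each call rests on the model fitted across genes.

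**Figure D1:**
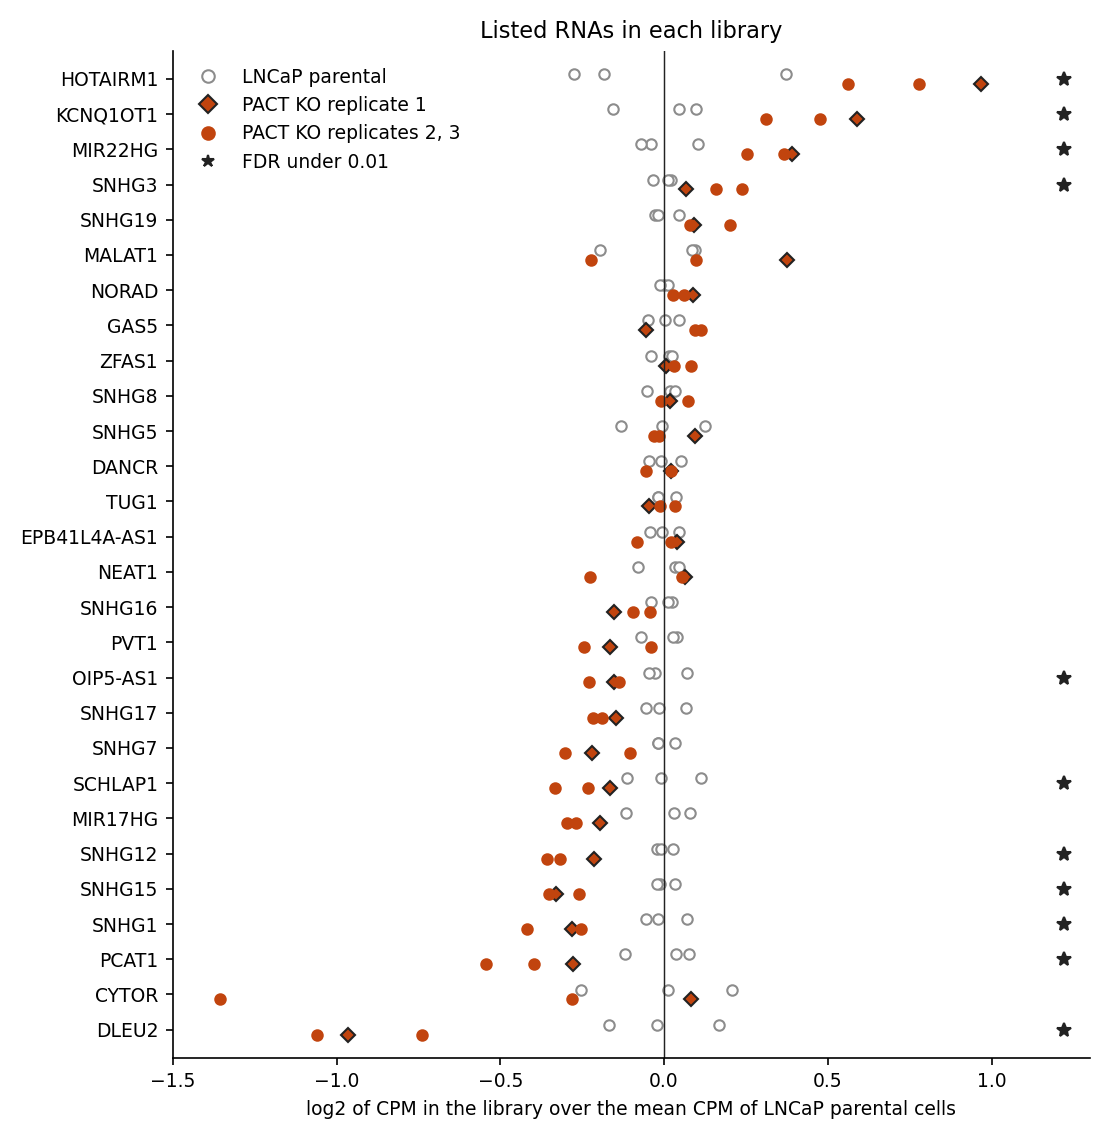
Level of each of the 28 tested RNAs in every library, as the log2 of its CPM over the mean CPM of LNCaP parental cells, ordered by fold change; open grey circles are LNCaP parental libraries, red symbols PACT KO libraries, the outlined diamond PACT KO replicate 1 and stars an FDR under 0.01. *DLEU2* at -0.90 and *HOTAIRM1* at 0.79 lie farthest from 0 among the called RNAs, and *MALAT1* is highest in PACT KO replicate 1.

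The 4 RNAs with a row that could not be compared were 2 imprinted and 2 prostate lncRNAs. *H19*, the maternally expressed host of miR-675, and *MEG3*, a maternally expressed RNA, had 0 reads in all 6 libraries. *PCA3*, the RNA measured in urine tests for prostate cancer, had 1, 2 and 2 reads in LNCaP parental and 1, 0 and 3 in PACT KO, so it was at or under the floor throughout. *PCGEM1*, a prostate-specific transcript, had 6, 2 and 7 reads in LNCaP parental and 9, 9 and 6 in PACT KO. In CPM these were 0.264, 0.0925 and 0.283 against 0.364, 0.370 and 0.297, with every PACT KO library above every parental one, but *PCGEM1* did not pass the filter on low counts and was not tested.

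To compare levels between RNAs, CPM were divided by transcript length, taken as the median over the GENCODE transcripts that are paired with each RefSeq gene. On this scale of CPM per kb the levels in LNCaP parental cells ran from 361 ± 12.5 (SD, n = 3) for *DANCR* to 0.115 ± 0.0104 for *KCNQ1OT1*. *DANCR*, itself a snoRNA host also known as *SNHG13*, was followed by *GAS5* at 316 ± 9.72, *SNHG8* at 221 ± 6.57, *SNHG19* at 123 ± 3.47 and *ZFAS1* at 107 ± 2.58 CPM per kb. These leading RNAs are all spliced hosts of snoRNAs. *NORAD*, *SNHG3*, *SNHG1* and *TUG1* lay between 53.2 and 72.6 CPM per kb, and *SNHG3* and *SNHG1*, at 58.0 ± 1.24 and 57.7 ± 2.61, did not differ beyond their spread in LNCaP parental cells.

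The microRNA hosts and the unspliced *KCNQ1OT1* were at the low end. They shared it with *PCGEM1* at 0.134, *CYTOR* at 1.59, *PCAT1* at 3.10 and *HOTAIRM1* at 3.44 CPM per kb in LNCaP parental cells. *MIR22HG* was at 4.18 ± 0.276, *MIR17HG* at 1.96 ± 0.136 and *DLEU2* at 1.77 ± 0.209 CPM per kb in LNCaP parental cells. The order depends on the transcript taken: *NEAT1*, at 32.8 ± 1.55 CPM per kb over a length of 13133 bases, was the RNA with the most reads of all on the scale of CPM, with a mean of 431 CPM.

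**Figure D2:**
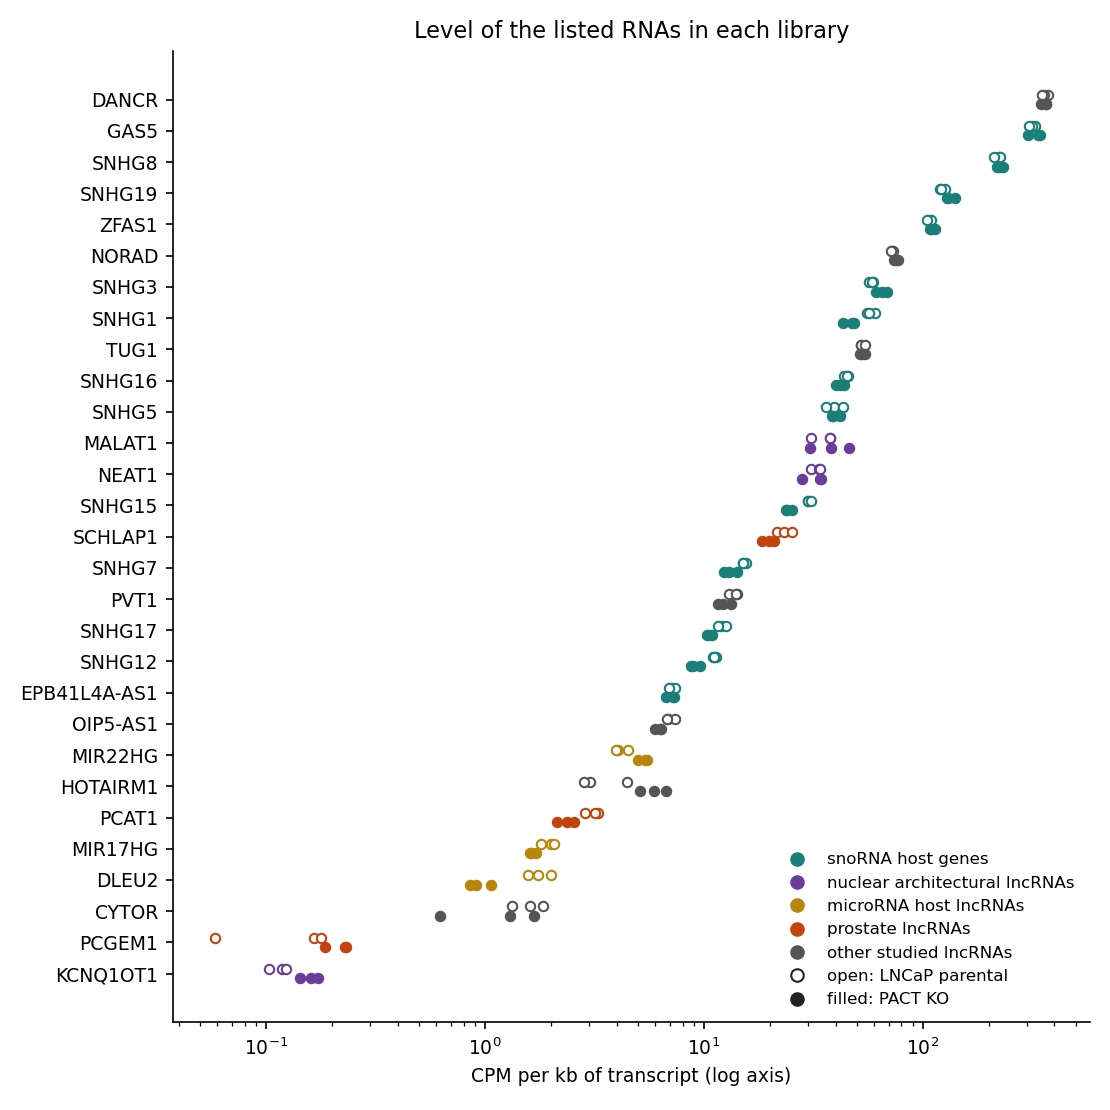
Level of 29 listed RNAs in each library in CPM per kb of transcript (log axis), coloured by role; open circles are LNCaP parental and filled circles PACT KO libraries. Levels in LNCaP parental run from *KCNQ1OT1* at 0.115 to *DANCR* at 361 CPM per kb, with most snoRNA hosts in the upper part.

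Of the 13 snoRNA host genes tested, 3 were lower in PACT KO, 1 was higher and 9 were not called. The share called was 30.8%, near the 34.2% of all genes tested. Their median log2 fold change was -0.01, with a range of -0.32 to 0.16. None reached 1.5-fold. The 3 that fell were *SNHG1*, *SNHG15* and *SNHG12*.

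*SNHG1*, on chr11:62851978-62855885 of GRCh38 (hg38), carries a row of box C/D snoRNAs in its introns, the class that guides 2′-O-methylation. It measured 70.2, 76.6 and 71.9 CPM in LNCaP parental and 60.0, 54.6 and 61.1 CPM in PACT KO. Every PACT KO library was below every parental library, and the gene fell by 0.32 on the log2 scale (SE 0.04, 95% interval -0.40 to -0.23, FDR 4.99e-08).

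*SNHG15*, on chr7:44983023-44986696, carries *SNORA9*. It measured 25.3, 25.1 and 26.1 CPM in LNCaP parental against 20.3, 21.3 and 20.0 CPM in PACT KO. The groups did not overlap, and it fell by 0.31 (log2, SE 0.06, FDR 1.20e-04). *SNHG12*, on chr1:28578538-28582983, carries box H/ACA snoRNAs, which guide pseudouridylation, and 1 of box C/D. It measured 11.9, 12.3 and 12.0 CPM in LNCaP parental and 10.4, 9.42 and 9.69 CPM in PACT KO. These groups were also apart, with a fall of 0.30 (log2, SE 0.09, FDR 0.00621), but the FDR ran to 0.0247 over the other settings and single libraries left out, and 8 of 13 of them did not call *SNHG12*.

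*SNHG3*, on chr1:28505943-28510892, was the host gene that rose. Its introns hold *SNORA73A* and *SNORA73B*, the snoRNAs also called U17, which take part in cutting the ribosomal precursor. It measured 130, 125 and 129 CPM in LNCaP parental and 134, 151 and 143 CPM in PACT KO. The lowest PACT KO library was PACT KO replicate 1, and it was still over the highest parental library. The log2 fold change was 0.16 (SE 0.03, FDR 1.71e-04), and 0.21 (SE 0.03, FDR 4.20e-07) without PACT KO replicate 1.

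The other 9 hosts were not called. *GAS5*, the growth arrest-specific host of 10 box C/D snoRNA rows, measured 206, 200 and 193 CPM in LNCaP parental and 192, 216 and 213 CPM in PACT KO. PACT KO replicate 1 was the lowest of all 6 and the other PACT KO libraries the highest. The log2 fold change of *GAS5* was 0.05 (95% interval -0.02 to 0.12, FDR 0.22), and without PACT KO replicate 1 it was 0.11 (FDR 0.00329) and past the threshold. *SNHG7*, with a log2 fold change of -0.21 (SE 0.07, FDR 0.0131), *SNHG16* with -0.10 (SE 0.03, FDR 0.0211) and *SNHG19* with 0.12 (SE 0.04, FDR 0.0209) had groups that did not overlap and missed the threshold. *SNHG17*, at -0.18 (SE 0.09), was also apart and not called.

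For *ZFAS1*, *SNHG8*, *SNHG5* and *EPB41L4A-AS1* the estimates were between -0.01 and 0.04 and the groups overlapped. Their intervals were narrow: -0.03 to 0.11 for *ZFAS1*, -0.04 to 0.09 for *SNHG8*, -0.14 to 0.18 for *SNHG5* and -0.14 to 0.13 for *EPB41L4A-AS1*. A change of 1.5-fold was outside each of them.

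**Figure D3:**
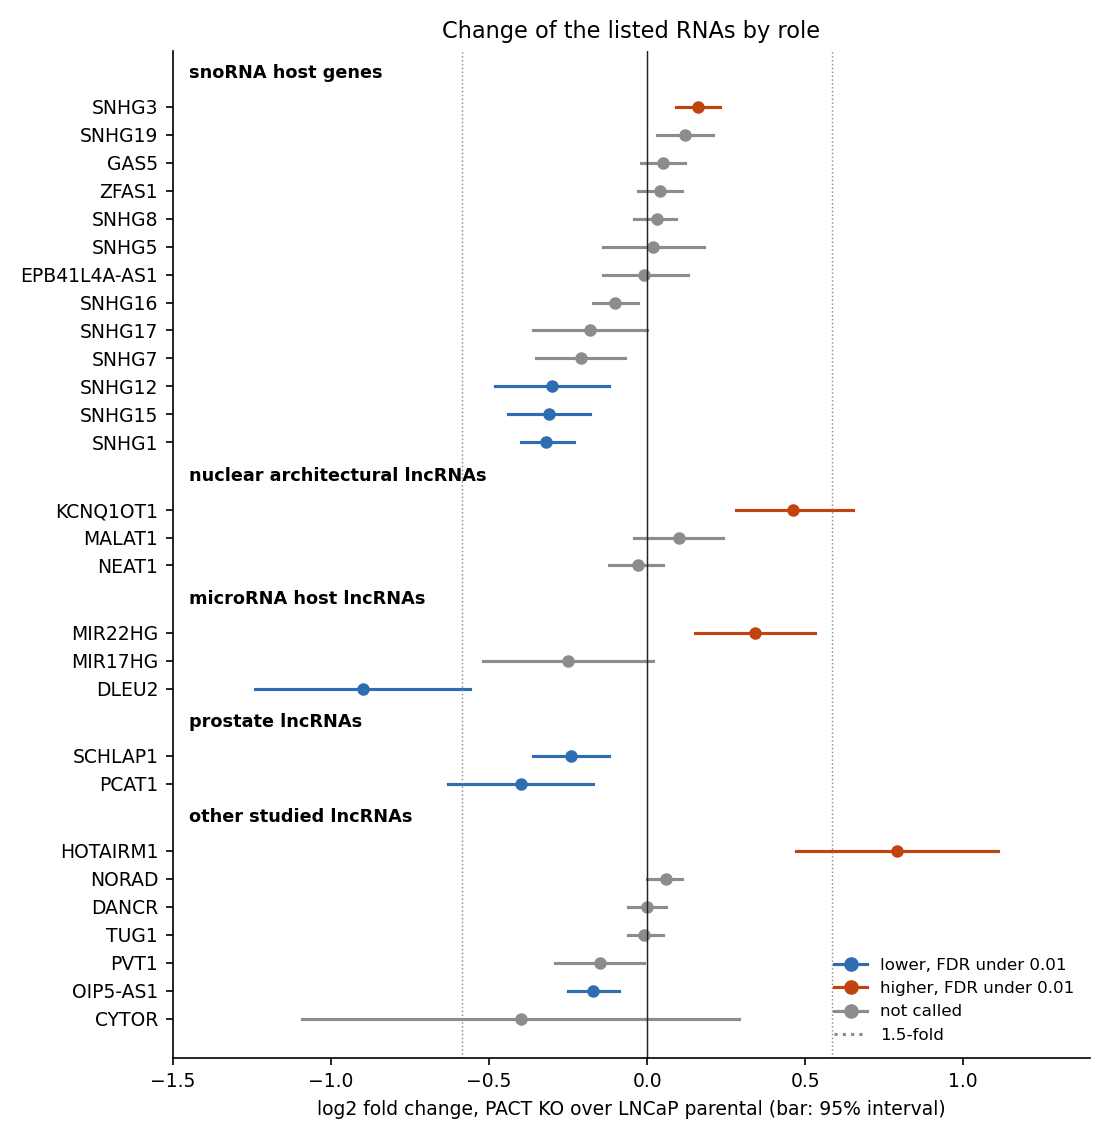
Log2 fold change of each tested RNA, PACT KO over LNCaP parental, with its 95% interval, grouped by role; blue is lower and red higher at an FDR under 0.01, grey not called, and dotted lines mark 1.5-fold. The snoRNA hosts lie between -0.32 and 0.16, while *DLEU2* at -0.90 and *HOTAIRM1* at 0.79 have estimates past 1.5-fold.

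The snoRNAs inside the listed genes had 43 rows of their own in 14 of the genes, *DANCR* included. Mature snoRNAs have no poly(A) tail, and a read on a snoRNA row can come from a precursor or a retained intron, so these rows do not measure mature snoRNA. Over 10 reads in all were found on 40 rows, and 31 were tested, with 1 lower and 1 higher, where 34.2% of all genes tested were called. All 43 rows together held 40.7 to 56.6 CPM per library, so small changes of single rows were not detectable at this depth. The 8 rows within *SNHG1* summed to 11.4, 12.2 and 13.2 CPM in LNCaP parental and 9.27, 8.51 and 9.30 CPM in PACT KO. Every PACT KO sum was below every parental sum, the same direction as the spliced host, and all 8 estimates were below 0.

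Of the 8 rows within *SNHG1*, *SNORD22* was called, with 52, 70 and 71 reads in LNCaP parental and 55, 28 and 23 in PACT KO. It fell by 0.87 on the log2 scale (SE 0.20, FDR 4.88e-04), and in CPM the PACT KO libraries, at 2.23, 1.15 and 1.14, were below the parental ones. The 10 rows within *GAS5* summed to 18.3, 18.5 and 20.1 CPM in LNCaP parental and 20.5, 16.7 and 19.7 CPM in PACT KO, with overlapping groups. The 4 rows within *SNHG12* summed to 4.01, 2.91 and 4.52 CPM against 3.28, 3.45 and 3.51 CPM, also overlapping.

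The 2 rows within *SNHG3* followed the library rather than the group. *SNORA73B* had 32, 17 and 36 reads in LNCaP parental and 201, 38 and 23 in PACT KO, and *SNORA73A* had 41, 51 and 52 against 131, 39 and 45. The call of *SNORA73B*, a log2 fold change of 1.60 (SE 0.39, FDR 9.23e-04), rested on PACT KO replicate 1, the library rich in RNAs without a tail. The spliced *SNHG3* RNA was lowest among PACT KO libraries in that same replicate.

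The first bases of host genes are shown because a start at C followed by pyrimidines, the 5′ terminal oligopyrimidine (TOP) feature, is what many snoRNA hosts share with ribosomal protein genes. The windows are 30 bases from the transcript start in the RefSeq promoter table (GRCh38.p14), given 5′ to 3′ on the strand of the gene. For *SNHG12* and *ZFAS1* that start lies 1110 and 464 bases inside the full span of the gene, so other transcripts of these genes begin upstream of it. In each window capitals mark the unbroken run of C and T from the first base where that base is C. The 4 hosts with a run of 5 or more are followed by the hosts *SNHG1* and *SNHG7*, with shorter runs, and *SNHG3*, which has none.
SNHG12, chr1:28581844-28581873, minus strand: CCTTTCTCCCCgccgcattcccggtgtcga
SNHG5, chr6:85678704-85678733, minus strand: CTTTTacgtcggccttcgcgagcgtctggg
SNHG19, chr16:2155329-2155358, minus strand: CTTTTCggggtcgagtccgagggggaagag
ZFAS1, chr20:49278642-49278671, plus strand: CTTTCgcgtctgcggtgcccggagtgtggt
SNHG7, chr9:136728155-136728184, minus strand: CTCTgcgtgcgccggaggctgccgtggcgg
SNHG1, chr11:62855856-62855885, minus strand: CTCatttttctactgctcgtggtaagtggc
SNHG3, chr1:28505943-28505972, plus strand: gattctctaactgcgcatgcttctgcgcac

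A run of 5 or more was found in 4 of the 13 hosts for which RefSeq gave a window and in 4.07% of all 35116 windows. The starts are annotated and were not measured in these cells, so a run that begins some bases further in is not counted. Hosts with the run at the annotated start did not move together. *SNHG12*, with the longest run of 11, was called lower, while *SNHG5* at 0.02, *ZFAS1* at 0.04 and *SNHG19* at 0.12 were not called. The letters CACGTG, the E-box, read the same on both strands and were found in the 300-base promoter windows of 5 of 26 listed RNAs, against 7.26% of all windows. These were *SNHG7*, *DLEU2*, *OIP5-AS1*, *NORAD* and *TUG1*, whose estimates ran from -0.90 to 0.06. Such a match describes the letters of the window and is not a measured binding site.

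The microRNA hosts are genes whose primary transcript is cut in the nucleus to release a hairpin. The mature microRNAs they carry are given from RefSeq (GRCh38.p14), 5′ to 3′, with the seed, bases 2 to 8, in capitals. They are shown because *DLEU2* and *MIR22HG* moved in opposite directions, and because shared seeds show which microRNAs can pair with the same target letters.
miR-15a-5p, in DLEU2: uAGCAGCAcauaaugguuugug
miR-16-5p, in DLEU2: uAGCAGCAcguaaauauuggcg
miR-22-3p, in MIR22HG: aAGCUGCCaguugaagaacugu
miR-17-5p, in MIR17HG: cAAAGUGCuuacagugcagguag
miR-20a-5p, in MIR17HG: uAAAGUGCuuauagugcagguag
miR-18a-5p, in MIR17HG: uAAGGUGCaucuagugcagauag
miR-19a-3p, in MIR17HG: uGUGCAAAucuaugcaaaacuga
miR-19b-3p, in MIR17HG: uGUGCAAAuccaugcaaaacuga
miR-92a-3p, in MIR17HG: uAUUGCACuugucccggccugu

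The microRNAs printed for *DLEU2*, miR-15a and miR-16, share the seed AGCAGCA, and those of *MIR17HG* fall into 4 seeds. No mature microRNA was measured here. The hairpin rows of the microRNAs printed above held 0 reads in all 6 libraries, except that of miR-15a with 2 reads in all.

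*DLEU2*, on chr13:49982549-50125541, is the host of miR-15a and miR-16-1, in a region often deleted in leukaemia. It had 69, 75 and 68 reads in LNCaP parental and 39, 45 and 30 in PACT KO, or 3.04, 3.47 and 2.75 CPM against 1.58, 1.85 and 1.48 CPM. Every PACT KO library was well below every parental library. The mean fell from 3.08 ± 0.364 CPM to 1.64 ± 0.190 CPM (± SD of 3 dishes). On the log2 scale this was a fall of 0.90 (SE 0.17, interval -1.24 to -0.56, FDR 2.60e-05). Across the other settings and the libraries left out in turn, the gene was called each time, and the smallest fall was 0.81.

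*MIR22HG*, on chr17:1711504-1716210, is the host of miR-22. It measured 8.15, 9.02 and 7.99 CPM in LNCaP parental and 11.0, 10.0 and 10.8 CPM in PACT KO. The groups did not overlap, and it rose by 0.34 on the log2 scale (SE 0.09, FDR 0.00305). Without PACT KO replicate 1 the value was 0.32 with an FDR of 0.012. The call of *MIR22HG* was lost in 4 of 13 alternatives, that one included. The others were DESeq2 (FDR 0.0137) and the fits without LNCaP parental replicate 1 (0.0147) or LNCaP parental replicate 3 (0.0181). *MIR17HG*, on chr13:91347687-91354577, is the host of the miR-17-92 cluster, whose transcription MYC is known to drive. It had 3.79, 3.42 and 3.92 CPM in LNCaP parental and 3.24, 3.08 and 3.02 CPM in PACT KO, with groups apart but a log2 fold change of -0.25 that was not called (SE 0.13, FDR 0.123).

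Of the 3 lncRNAs that are retained in the nucleus, 1 rose (33.3% called, against 34.2% of all genes tested). *KCNQ1OT1*, on chr11:2608328-2699994, is a very long unspliced antisense RNA that is transcribed from the paternal allele and silences neighbouring imprinted genes. It measured 10.9, 9.48 and 11.3 CPM in LNCaP parental and 15.9, 13.1 and 14.7 CPM in PACT KO. All PACT KO libraries were over all parental libraries, and the log2 fold change was 0.46 (SE 0.09, FDR 7.07e-05) and 0.39 (SE 0.09, FDR 4.16e-04) without PACT KO replicate 1.

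*MALAT1*, on chr11:65497738-65506516, is an abundant RNA of nuclear speckles. It measured 270, 330 and 328 CPM in LNCaP parental and 401, 265 and 331 CPM in PACT KO. The range of PACT KO enclosed that of LNCaP parental, with PACT KO replicate 1 highest of all 6. The log2 fold change of 0.10 (SE 0.07, FDR 0.236) was not called, and it was -0.06 (FDR 0.325) without PACT KO replicate 1 but 0.24 (FDR 3.57e-07) without PACT KO replicate 2. For *MALAT1* the spread within PACT KO, 68.0 CPM, was larger than the difference of the means, 332 against 310 CPM.

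*NEAT1*, on chr11:65422798-65445540, is the scaffold of paraspeckles, nuclear bodies assembled along its length. It measured 407, 440 and 444 CPM in LNCaP parental and 450, 368 and 447 CPM in PACT KO. PACT KO replicate 2 was lowest for both *NEAT1* and *MALAT1*. The log2 fold change of *NEAT1* was -0.03 (95% interval -0.12 to 0.05, FDR 0.577).

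Both prostate lncRNAs that could be tested were called lower in PACT KO, as were 18.8% of all genes tested. The count of 2 is small, and of 18 further prostate and cancer lncRNAs tested, 2 rose and 1 fell. *SCHLAP1*, on chr2:180692104-180916939, is a transcript found in a subset of aggressive prostate cancers. It measured 31.0, 33.3 and 36.2 CPM in LNCaP parental and 29.9, 26.6 and 28.5 CPM in PACT KO. The groups were apart by a small gap, between 31.0 and 29.9 CPM, and it fell by 0.24 on the log2 scale (SE 0.06, FDR 8.67e-04). Without LNCaP parental replicate 3, the highest library, the value was -0.18 with an FDR of 0.0366 and no longer called.

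*PCAT1*, a prostate cancer associated transcript of chromosome 8, had 148, 137 and 141 reads in LNCaP parental and 126, 103 and 95 in PACT KO. In CPM these were 6.52, 6.34 and 5.69 against 5.10, 4.24 and 4.70, and the groups did not overlap. It fell by 0.40 (log2, SE 0.12, FDR 0.00442). The call was lost in DESeq2 (FDR 0.0348) and without LNCaP parental replicate 1 (0.0211), LNCaP parental replicate 2 (0.0146) or PACT KO replicate 2 (0.0296), and sat at an FDR of 0.01 without PACT KO replicate 3.

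Of the 7 remaining RNAs, 1 rose, 1 fell and 5 were not called (28.6% called, against 34.2% of all genes tested). *HOTAIRM1*, on chr7:27096094-27100258, is transcribed in the *HOXA* cluster. It had 48, 67 and 49 reads in LNCaP parental and 116, 86 and 83 in PACT KO, or 2.11, 3.10 and 1.98 CPM against 4.69, 3.54 and 4.11 CPM. LNCaP parental replicate 2 was nearest to PACT KO, and the groups did not overlap. The mean rose from 2.40 ± 0.611 CPM to 4.11 ± 0.579 CPM (± SD of 3 dishes), or by 0.79 on the log2 scale (SE 0.16, interval 0.47 to 1.11, FDR 6.83e-05). Without PACT KO replicate 1 the log2 fold change was 0.68 (SE 0.19, FDR 0.00206), and the call held under each alternative.

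*OIP5-AS1*, on chr15:41282697-41313338, is a cytoplasmic RNA known to bind the stability factor ELAVL1. It measured 60.9, 65.1 and 60.1 CPM in LNCaP parental and 55.8, 56.4 and 52.9 CPM in PACT KO, with groups apart. The fall was 0.17 on the log2 scale (SE 0.04, FDR 6.53e-04), and without LNCaP parental replicate 2 the FDR was 0.0113. *NORAD*, on chr20:36045618-36050960, holds many binding sites for Pumilio proteins such as PUM2. Its 388, 391 and 384 CPM in LNCaP parental and 412, 395 and 404 CPM in PACT KO were apart, but the log2 fold change of 0.06 was not called (SE 0.03, FDR 0.0689).

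*TUG1*, which RefSeq lists as protein coding, measured 375 to 397 CPM over all 6 libraries and *DANCR* 314 to 338 CPM. Their groups overlapped, with log2 fold changes of -0.01 (95% interval -0.06 to 0.05) for *TUG1* and -0.00 (-0.06 to 0.06) for *DANCR*. *PVT1*, the neighbour of *MYC*, measured 24.0, 22.2 and 23.8 CPM in LNCaP parental and 20.8, 19.7 and 22.7 CPM in PACT KO. One PACT KO library lay within the parental range of *PVT1*, and the log2 fold change of -0.15 was not called (SE 0.07, FDR 0.0778). *CYTOR*, a cytoplasmic RNA at the limit of the filter, had 16, 21 and 21 reads in LNCaP parental and 22, 8 and 14 in PACT KO. Its log2 fold change of -0.40 had an interval of -1.09 to 0.29, so no change was detectable at this depth.

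Further lncRNA hosts of snoRNAs and further lncRNAs of prostate or other cancers were also compared. Of all genes tested 34.2% were called, and of the RefSeq class lncRNA 13.1%. Of 18 further host lncRNAs, 10 were tested and 0 were called in edgeR, DESeq2 or limma-voom. The count of 10 is too small to set this apart from the share of the lncRNA class. In edgeR 3 were at an unadjusted p under 0.05, and the median log2 fold change was -0.05. The smallest p-values were those of *SNHG21* at -0.30 (FDR 0.0275), *SNHG6* at -0.12 (FDR 0.0285) and *SNHG4* at -0.17 (FDR 0.0311). Of 44 further prostate and cancer lncRNAs, 18 were tested, and 2 rose and 1 fell. The share called was 16.7%, near the 13.1% of the lncRNA class and under the 34.2% of all genes. *CTBP1-AS*, an androgen-regulated antisense RNA, rose by 0.44, *DRAIC*, a lncRNA that falls as prostate cancer progresses, rose by 0.24, a call that was lost without LNCaP parental replicate 2 or PACT KO replicate 3, and *LINC01128* fell by 0.21 on the log2 scale, a call that was lost without LNCaP parental replicate 2 or 3 or PACT KO replicate 1.

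The protein-coding genes that host snoRNAs differed from the listed lncRNA hosts in their counts. Of 43 tested, 29 were lower, 1 was higher and 13 were not called, a share called of 69.8%, against 34.2% of all genes tested, with a median log2 fold change of -0.14. No test of the difference between these lists was made. The median coefficient of variation between dishes (SD over mean) was 1.99% in LNCaP parental and 2.72% in PACT KO for the protein-coding hosts. For the listed snoRNA host genes it was 2.83% and 4.74%. Smaller changes could therefore be called among the protein-coding hosts, and the shares called are not directly comparable. *RCC1*, which loads the GTPase RAN in the nucleus, fell by 0.52, and *SNRPB*, a core protein of spliceosomal particles, fell by 0.44. *EIF4A2*, an RNA helicase of translation initiation and the 1 gene higher, rose by 0.43. Of the 21 ribosomal protein genes in this list, 14 were lower and 7 were not called, with a range of -0.24 to 0.02.

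Of 20 genes for proteins of snoRNA particles and their assembly, 12 were lower and 8 were not called, with a median of -0.16. The share called was 60.0%, against 34.2% of all genes tested, of which 18.8% were lower. *NOLC1*, an assembly factor of the nucleolus, fell by 0.39, *TCOF1*, a factor of ribosomal RNA transcription, fell by 0.38, and *NOP56*, a core protein of box C/D particles, fell by 0.28 on the log2 scale. All of these changes were under 1.5-fold. *NOP56* and *DKC1*, both called lower, are also in the list of protein-coding hosts, so the 2 lists are not separate.

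Of 22 factors of nonsense-mediated decay, 7 were lower (4 without LNCaP parental replicate 1) and 1 was higher, with a median of -0.09. The share called, 36.4%, was near the 34.2% of all genes. *GSPT1* and *ETF1*, which release the peptide at a stop codon, fell by 0.31 and 0.16, and *RNPS1*, a protein of exon junctions, fell by 0.24. *SMG6*, the endonuclease of the pathway and the 1 gene higher, rose by 0.18. Of 16 paraspeckle proteins, 7 were lower and 1 higher, against 34.2% of all genes called, with a median of -0.09: *DAZAP1* fell by 0.35 and *TAF15* by 0.28, both RNA-binding proteins, beside *NEAT1*, their scaffold, which was not called. *ZNF24*, a zinc finger protein and the 1 gene higher in that list, was at 0.10, and its call was lost without LNCaP parental replicate 1, LNCaP parental replicate 2 or PACT KO replicate 1. Of the 4 protein partners of listed RNAs, *ELAVL1*, the partner of *OIP5-AS1*, fell by 0.19, and *PUM2*, a partner of *NORAD*, fell by 0.11 at an FDR of 0.00963. The call of *PUM2* was lost in 10 of 13 alternatives, with an FDR of up to 0.0986.

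**Figure D4:**
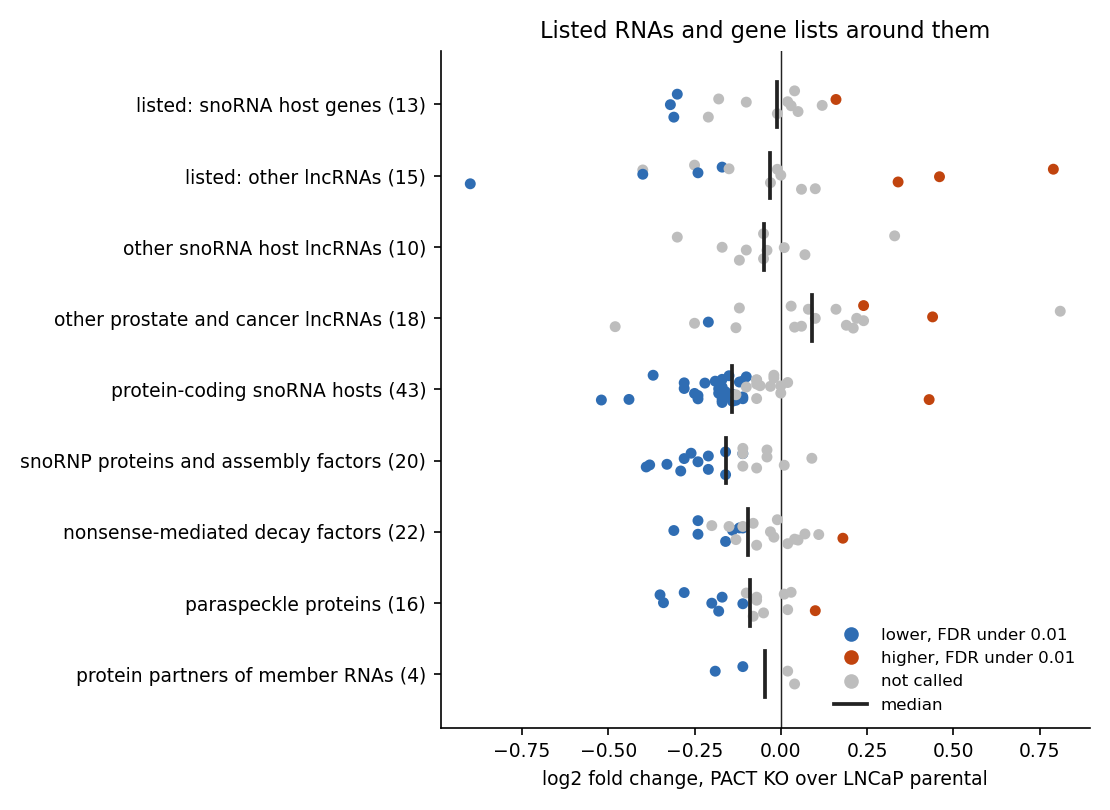
Log2 fold change of every tested gene of the listed RNAs and of 7 gene lists around them, PACT KO over LNCaP parental, with the number tested in brackets; blue is lower and red higher at an FDR under 0.01, grey not called, and the black bar is the median. The protein-coding hosts and the snoRNP proteins lie mostly below 0, with medians of -0.14 and -0.16, while both groups of listed RNAs have medians of -0.01 and -0.03.

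Many of the listed RNAs overlap another gene, often on the opposite strand. Whether the counting used strand is not given in the sources used here, so reads of such a pair may not be told apart. Of 16 genes that overlap a listed RNA in RefSeq, 14 were tested, 3 were lower and 3 higher (42.9% called, against 34.2% of all genes), and 4 were DEGs (28.6%, against 5.72% of all genes).

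*EPB41L4A*, which encodes a membrane-associated band 4.1 protein, had 24, 26 and 38 reads in LNCaP parental and 120, 123 and 103 in PACT KO. It rose by 1.97 on the log2 scale (SE 0.16, FDR 2.78e-13), while its antisense RNA *EPB41L4A-AS1*, at 20.0 to 21.9 CPM in all 6 libraries, was not called. *OIP5*, which encodes a centromere protein and overlaps *OIP5-AS1*, fell by 0.72 (SE 0.09, FDR 2.11e-08), a larger fall than the 0.17 of the lncRNA. *PRUNE2*, whose intron holds *PCA3*, fell from a mean of 653 ± 6.50 CPM to 307 ± 0.959 CPM (± SD of 3 dishes), or by 1.09 on the log2 scale, with *PCA3* at the floor in both groups.

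At the *DLEU2* locus the genes went in different directions. *TRIM13*, a ubiquitin ligase within the *DLEU2* span, rose by 0.26 (SE 0.06, FDR 5.33e-04), and *KCNRG*, a regulator of potassium channels, rose by 0.60 (SE 0.13, FDR 3.31e-04). *DLEU1*, the neighbouring lncRNA, was at -0.12 (SE 0.08) and was not called, while *DLEU2* fell by 0.90. *RCC1*, which overlaps *SNHG3*, fell by 0.52 (SE 0.04, FDR 3.63e-15) where *SNHG3* rose by 0.16. *KCNQ1*, the potassium channel gene that encloses *KCNQ1OT1*, was at 0.14 (SE 0.13) and was not called.

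The overlapping genes *TRNAU1AP*, *ZBTB37*, *GAS5-AS1*, *DIPK1B*, *MRPL23* and *UBE3A* were not called. Of 33 tested genes that flank a listed RNA without overlapping one, 2 were DEGs (6.06%, near the 5.72% of all genes). *TMEFF2*, a membrane protein of prostate cells beside *PCGEM1*, rose from a mean of 120 ± 1.62 CPM to 194 ± 3.07 CPM (± SD of 3 dishes), or by 0.69 on the log2 scale. *ERVMER34-1*, an endogenous retroviral envelope gene beside *DANCR*, had 71, 57 and 56 reads in LNCaP parental and 5, 1 and 3 in PACT KO, a log2 fold change of -4.30 (SE 0.34, FDR 1.77e-13), while *DANCR* was not called.

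**Figure D5:**
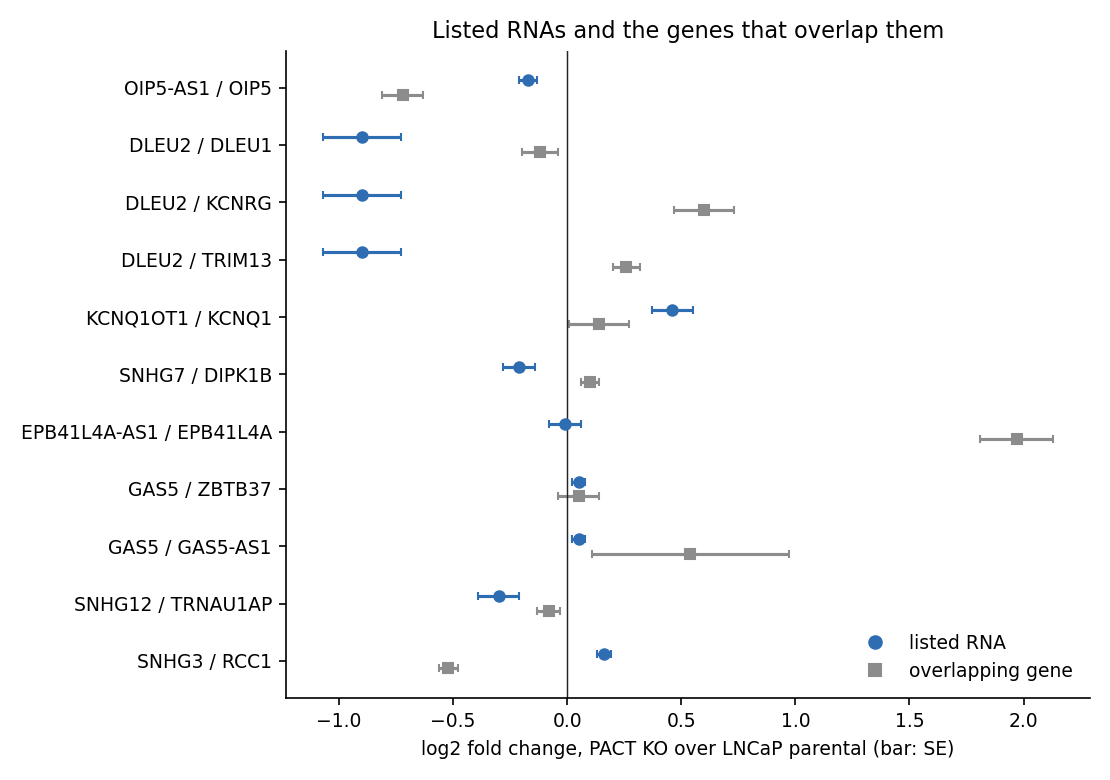
Log2 fold change, PACT KO over LNCaP parental, of listed RNAs (blue circles) and of each tested gene that overlaps them (grey squares), with bars of 1 SE. *EPB41L4A* at 1.97 lies far from *EPB41L4A-AS1* at -0.01, and *DLEU2* at -0.90 lies opposite *KCNRG* at 0.60.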

How the data were processed

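PolyA RNA of 3 LNCaP parental and 3 PACT KO dishes was sequenced on an Illumina NovaSeq. The authors deposited whole-number read counts per NCBI Gene number, not normalized. The submitters' processing notes name bcl2fastq 2.20.0.422, STAR 2.5.3a, StringTie 1.3.3, featureCounts 1.5.3 and hg38. Neither the annotation nor whether counting was stranded is given in the sources used here. A row without a gene number, 0.0688% to 0.0708% of each library, was left out. Symbols came from RefSeq (GRCh38.p14) for 27540 of 29806 gene numbers.

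Genes were kept by filterByExpr, scaled by TMM and compared by glmQLFit and glmQLFTest, 2-sided with defaults, in edgeR 4.0.16 (R 4.3.3), with Benjamini-Hochberg adjustment over the 14462 genes tested. The study names edgeR, TMM, the FDR threshold of 0.01 and the 1.5-fold limit, but not the filter or the test. The biological coefficient of variation was 2.9%. An SE is the absolute log2 fold change divided by the square root of F, and CPM were computed with the TMM factors. Transcript lengths are from GENCODE release 29. The 33 RNAs and the gene lists, compiled from general knowledge, were chosen with earlier results of these data known. Named genes are the 33 RNAs, *PRKRA*, each list's DEGs if their mean reached 1 CPM and otherwise the 3 genes with the smallest p, the neighbours that overlap a listed RNA or are DEGs, and snoRNA rows with over 10 reads. A few genes that this rule names are not reported here. *SMG6*, *ZNF24*, *DKC1*, *NONO*, *SFPQ*, *PSPC1* and the 5 RNAs without a tail were named after their values were seen. On counts simulated for this comparison over 14356 genes, edgeR recovered 200 of 200 changed genes with 2 false calls. Every simulated gene had the same coefficient of variation of 2.9%, and only well expressed genes were changed, by 1.5-fold or more. The simulation therefore does not bear on calls at low counts, at a larger spread or under 1.5-fold.

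Alternatives were DESeq2 1.42.0, limma-voom (limma 3.58.1), RLE and upper quartile scaling, no filter, a filter of over 1 CPM in 3 libraries, the replicate number as a block, each library left out, and an FDR under 0.05.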

Additional observations from a re-analysis of the deposited data

How the results depend on the processing

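Over 13 alternatives (7 other settings and 6 libraries left out in turn), 315 of 363 estimates of the listed RNAs kept their direction and their side of the threshold, 19 lost the call, 10 gained it and 19 changed sign. The changes of sign were all among RNAs that were not called. *DANCR* was at 0.00 with RLE scaling, no filter, the 1 CPM filter and DESeq2 and at 0.02 with upper quartile scaling, *EPB41L4A-AS1* at 0.02 and 0.00 with upper quartile scaling and the 1 CPM filter, and *TUG1* at 0.02 with upper quartile scaling. With a library left out, the log2 fold changes ran from -0.02 to 0.03 for *DANCR*, -0.02 to 0.04 for *EPB41L4A-AS1*, -0.03 to 0.02 for *TUG1*, -0.04 to 0.08 for *SNHG5*, -0.06 to 0.24 for *MALAT1* and -0.08 to 0.06 for *NEAT1*. With a library left out, the number of listed RNAs called lower was 4 to 7, the number of genes of the other lists called higher was 3 to 5, and the median log2 fold change of the snoRNA hosts was -0.04 to 0.04. The cause was not tested. Upper quartile scaling moved the median of all genes by 0.024 on the log2 scale.

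No pairing by replicate number was seen: deviations of same-numbered libraries from their group means correlated at -0.105, 0.0115 and -0.0851. Those of differently numbered libraries ran from -0.119 to 0.176, highest for LNCaP parental replicate 3 with PACT KO replicate 1. Deviations from a mean of 3 libraries depend on each other, so these values do not exclude pairing. With the replicate number as a block, 8 listed RNAs were lower and 4 higher, *SNHG7* being added at -0.21 (FDR 0.0084). Depth limits *CYTOR*, *PCGEM1* and *PCA3*, and the lack of strand information limits the RNAs that overlap other genes.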
